A study of Homo sapiens with 12 samples.

Results

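The genes described here encode subunits of the mitochondrial respiratory chain and ATP synthase that are carried in the nuclear genome. Members were chosen by symbol, among probe sets annotated to a single gene. The symbols were NDUF followed by A, B, C, S or V and a number, SDHA to SDHD, CYC1, and those that begin with UQCR, COX4 to COX8 or ATP5. This gave 67 of the 11963 genes on the arrays, each read from its probe set with the highest mean. Complex I had 27 members, complex II had 3, complex III had 7, complex IV had 12 and complex V, the ATP synthase, had 15. The other 3 were ATP5IF1, an inhibitor of ATP synthase, COX7A2L, a factor that joins complexes III and IV, and ATP5MC2P1, a pseudogene. NDUFAB1 and genes whose probe sets carry several symbols were not taken by this rule.

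Total RNA was measured on 12 Affymetrix arrays from U937 and MV4-11, 2 human acute myeloid leukaemia lines of monocytic character. For each line there were 3 arrays of cells that carried an shRNA targeting CHD4 and 3 of cells that carried a scrambled, non-silencing shRNA. The question set by the design was how depletion of CHD4, a chromatin remodelling ATPase, changes the transcriptome. All 4 groups, scrambled ones included, carried a lentiviral pRRL.H1 vector that expresses GFP. The target is written CDH4 on the samples and CHD4 in the description of the series. They give neither the number of hairpins nor the time after transduction. RNA came from whole cultures, so fewer cells of a kind and less RNA per cell cannot be told apart. Every level below is a log2 RMA value of 1 array, and every change is a CHD4 shRNA mean minus a scrambled mean of 3 arrays each in log2 units, with its standard error. A gene was counted as changed where its limma p, adjusted by Benjamini-Hochberg over all 11963 genes, was under 0.05.

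Complexes I and II pass electrons from NADH and succinate to ubiquinone, complex III hands them to cytochrome c, and complex IV reduces oxygen. Complexes I, III and IV pump protons, and ATP synthase lets the protons flow back through a rotor to make ATP. Complexes I, III, IV and V also hold subunits made inside the mitochondrion, so their nuclear subunits have to be supplied in matching amounts. Myeloid leukaemia cells are known to rely on oxidative phosphorylation. The promoters of nuclear subunits are known for binding sites of NRF1, of the ETS factor GABP and of YY1.

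RefSeq promoter entries, which run from 250 bases before to 50 after the start of a gene, were matched for 57 of the 67 members. The letters GCGCANGC, the core of NRF1 sites, were found on either strand in 22 of them (38.6%), against 18% of 9562 matched genes on the arrays and 12.5% of all 27305 promoters. The ETS and GABP letters CCGGAAG were in 17 (29.8%), against 15.2% and 10.7%. The YY1 core AAGATGGC was in 10 (17.5%), against 4.76% and 3.03%. At least 1 of the 3 was in 35 member promoters (61.4%), against 32.6% and 22.8%, and 1 promoter could hold several. The median GC content of the member promoters was 60.3%, that of genes on the arrays 64%. A match describes letters in a window and is not a measured binding site.

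The 150 bases before the start are shown for 5 members whose changes are described below, with the motif letters in capitals. They are from GRCh38.p14, 5′ to 3′ on the strand of the gene. ATP5F1E, which rose in both lines, lies on the minus strand and its window is chr20:59032336-59032485. NDUFA13, which rose in MV4-11, is on the plus strand at chr19:19516075-19516224, with an ETS and GABP match that begins 10 bases before the start. NDUFA9, which fell in U937, is on the plus strand at chr12:4648964-4649113, with an NRF1 match on the opposite strand that begins 78 bases before the start. NDUFV1, which fell in MV4-11, is on the plus strand at chr11:67606786-67606935. ATP5MC2, which also fell in MV4-11, is on the minus strand at chr12:53676084-53676233, with an NRF1 match on the opposite strand that begins 40 bases before the start. None of the 3 motifs is in the windows of ATP5F1E and NDUFV1.
ATP5F1E: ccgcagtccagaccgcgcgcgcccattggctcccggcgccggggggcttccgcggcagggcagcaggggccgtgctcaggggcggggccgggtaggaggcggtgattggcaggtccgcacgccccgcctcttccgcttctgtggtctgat
NDUFA13: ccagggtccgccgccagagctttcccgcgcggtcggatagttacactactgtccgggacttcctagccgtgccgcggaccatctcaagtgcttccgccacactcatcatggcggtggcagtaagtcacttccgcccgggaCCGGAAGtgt
NDUFA9: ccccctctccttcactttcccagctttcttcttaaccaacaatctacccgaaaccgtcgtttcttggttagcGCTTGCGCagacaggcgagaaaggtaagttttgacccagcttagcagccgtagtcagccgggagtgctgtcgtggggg
NDUFV1: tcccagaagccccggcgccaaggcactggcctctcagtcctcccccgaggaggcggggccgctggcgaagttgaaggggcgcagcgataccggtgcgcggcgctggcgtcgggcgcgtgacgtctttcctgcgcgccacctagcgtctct
ATP5MC2: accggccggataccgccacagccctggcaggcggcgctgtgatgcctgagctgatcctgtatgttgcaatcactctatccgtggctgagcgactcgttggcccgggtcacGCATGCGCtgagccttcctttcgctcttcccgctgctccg

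CHD4 was low in the cells meant to lack it. In U937 it read 8.23, 8.13 and 8.45 with CHD4 shRNA, against 10.31, 10.38 and 10.71 with scrambled shRNA, a change of -2.20 (SE 0.14, limma adjusted p = 8.78e-06). In MV4-11 it read 8.79, 8.85 and 8.39 with CHD4 shRNA, against 10.65, 10.69 and 10.68 with scrambled shRNA, a change of -2.00 (SE 0.14, adjusted p = 1.35e-05). Of 11 myeloid markers measured, the lysozyme gene LYZ averaged 13.73 in both U937 groups and 13.60 and 13.24 in MV4-11 CHD4 shRNA and scrambled cells. The monocyte marker CD14 averaged between 5.05 and 5.31 and the myeloid factor SPI1 between 6.40 and 6.54 in the 4 groups. The neutrophil elastase gene ELANE fell in both lines and KIT and ITGAM rose in MV4-11. Of the 11, 1 passed in U937 (9.09%, against 6.36% of all genes) and 3 in MV4-11 (27.3%, against 9.42%). Their median change was 0.09 in U937, with 8 above 0 and 2 below, and 0.18 in MV4-11, with 9 above and 2 below. ELANE did not pass without U937 scrambled replicate 1 or 2, nor in MV4-11 without CHD4 shRNA replicate 1 or 2 or scrambled replicate 1 or 3, and KIT and ITGAM passed whichever MV4-11 array was left out. Of 6 T and B cell markers, CD2 rose by 1.40 in U937 and by 1.77 in MV4-11, and the other 5 did not pass in either line. The list median was 6.02 to 6.20 in U937 CHD4 shRNA arrays, against 5.38 to 5.80 in U937 scrambled arrays. In MV4-11 it was 5.82 to 6.10 in CHD4 shRNA arrays, against 5.42 to 5.60 in scrambled arrays. The median change of these 6 markers was 0.045 in U937, with 5 above 0, and -0.03 in MV4-11, with 2 above 0. Of the 3 erythroid, 6 muscle and 5 fibroblast markers measured, 0 passed in either line. The part of these marker changes in the results below was not tested.

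The subunit genes were bright on the arrays, since 64 of the 67 means were above the upper quartile of all gene means, 9.28. The lowest mean was 4.93, of the muscle isoform COX7A1, and the highest 14.09, of ATP5F1A, the alpha subunit of the ATP synthase head. Within complexes, the highest and lowest means were 12.91 (NDUFB4) and 9.39 (NDUFA10) in complex I, 11.61 (SDHD) and 10.10 (SDHC) in complex II, and 12.92 (UQCRB) and 11.24 (UQCRQ) in complex III. In complex IV the highest mean was 13.67 (COX6C), and in complex V the lowest was 10.58 (ATP5F1D). Levels of different probe sets cannot be compared as amounts of RNA.

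**Figure D1:**
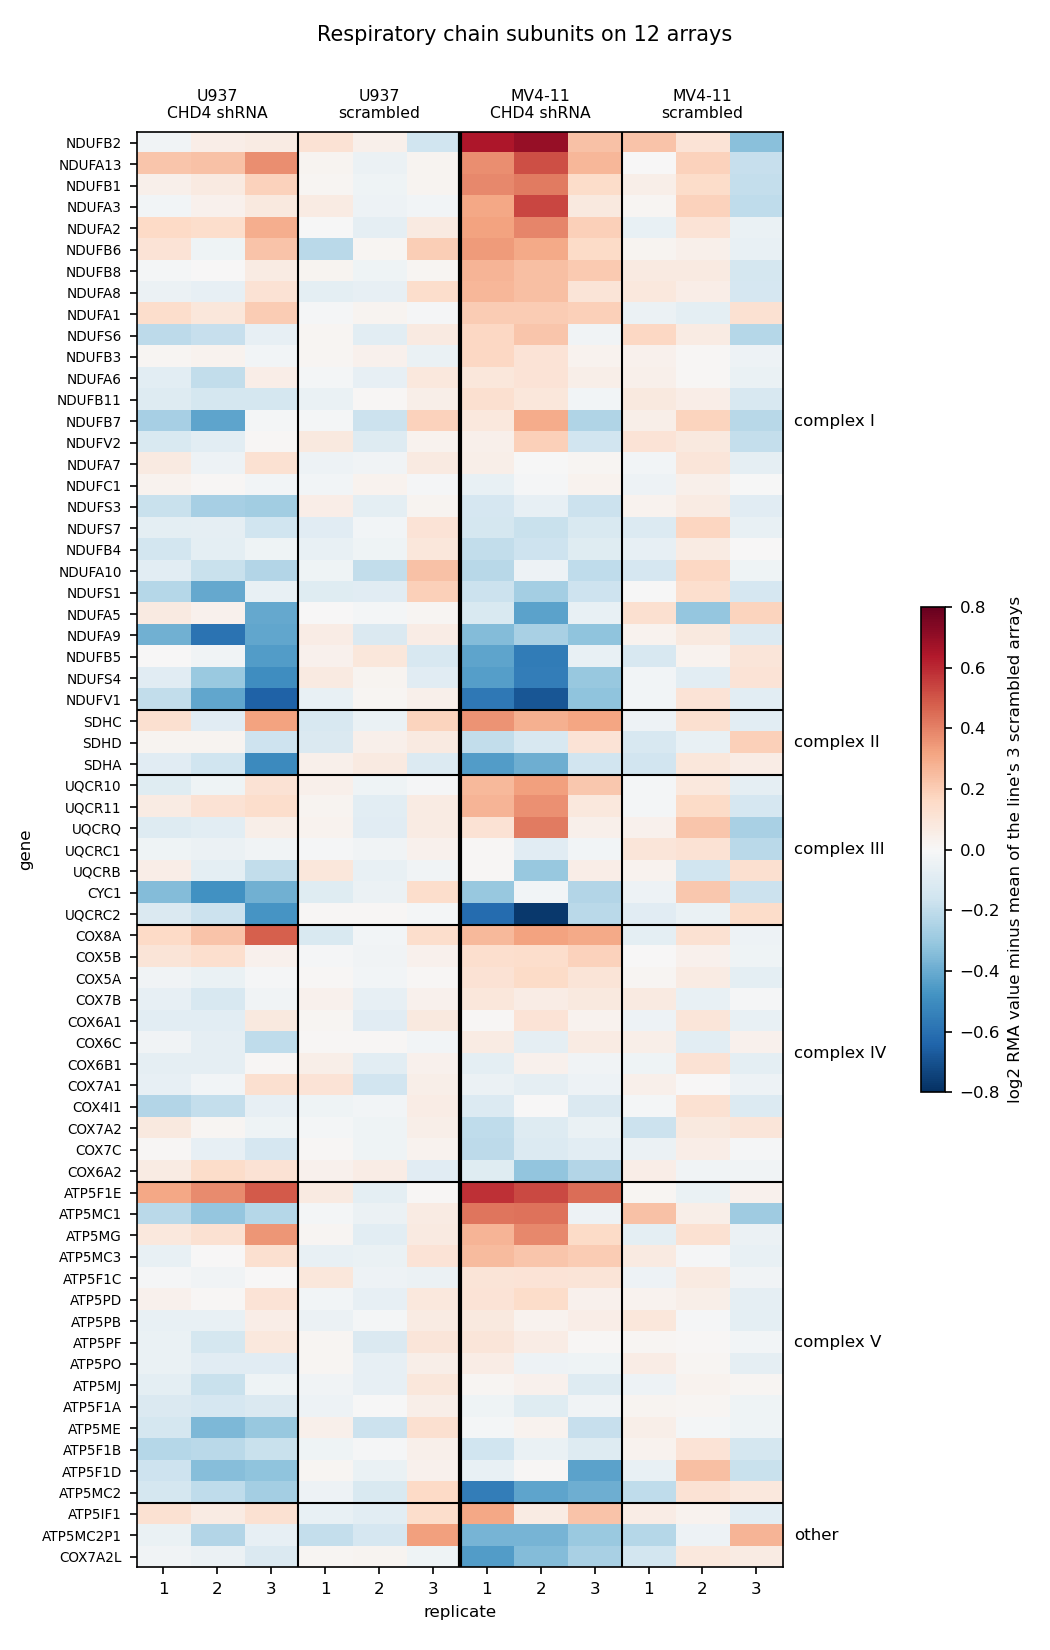
Each row is 1 of the 67 genes, grouped by complex and ordered by its change in MV4-11, and each column is 1 array. Colour gives the log2 RMA value minus the mean of the 3 scrambled arrays of the same line, red for higher and blue for lower. ATP5F1E is red on all 6 CHD4 shRNA arrays, and NDUFA9, NDUFS4 and NDUFV1 are blue on all 6.

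CHD4 shRNA moved few respiratory chain genes in U937, and none by as much as 1.5-fold. Of the 67 members 2 changed: ATP5F1E, the epsilon subunit of the central stalk of ATP synthase, rose, and NDUFA9, an accessory subunit at the junction of the complex I arms, fell. That is 2.99% of the members, against 6.36% of all genes (2.67% higher and 3.69% lower). Before adjustment 10 members had p under 0.05 (14.9%), against 19% of all genes. The median member change was -0.05, against -0.003 over all genes, with 23 members above 0 and 43 below. The changes ran from -0.46 to 0.39, and the 95% interval lay within 1.5-fold for 64 members and within 2-fold for all 67. CHD4 shRNA and scrambled arrays were apart for 21 members, 8 higher and 13 lower, which is 31.3% against 26.8% of all genes.

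In MV4-11 more members passed the test, again without reaching 1.5-fold on the probe set read for each gene. Of the 67, 8 changed (11.9%), against 9.42% of all genes. ATP5F1E and the complex I subunits NDUFA13 and NDUFB2 rose, 3 members where 4.73% of all genes rose. The complex I subunits NDUFS4 and NDUFV1, the complex III core protein UQCRC2, the rotor ring gene ATP5MC2 and the supercomplex factor COX7A2L fell, 5 members where 4.69% of all genes fell. Before adjustment 25 members had p under 0.05 (37.3%), against 24.5%. The median member change was 0.02, against -0.03 over all genes, and changes ran from -0.53 to 0.53. Intervals lay within 1.5-fold for 56 members and within 2-fold for all 67. The arrays did not overlap for 18 members higher and 12 lower, 44.8% of the members against 25.6% of all genes.

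In MV4-11, arrays with the same replicate number were taken as paired because their deviations correlated. The labels do not say what the number stands for. With the number as a block 13 members changed, 7 higher and 6 lower. That is 19.4% of the members, against 15.9% of all genes in the same fit. The 5 added were NDUFA2 (change 0.30, adjusted p = 0.0324), NDUFA3 (0.31, 0.0224), NDUFA9 (-0.31, 0.0419), NDUFB1 (0.32, 0.0198) and ATP5MC1 (0.27, 0.0421). The 8 genes above also passed there. Unless the block is named, the MV4-11 calls, standard errors and intervals given here are from the fit without it.

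The counts moved with single arrays, as did the share of all genes that passed. In U937, 0 members passed without CHD4 shRNA replicate 2, when 2.56% of all genes did. NDUFA9 alone passed without CHD4 shRNA replicate 3, scrambled replicate 2 or scrambled replicate 3, when 3.03%, 3.48% and 3.29% of all genes did. ATP5F1E alone passed without scrambled replicate 1, when 2.74% of all genes did. Without CHD4 shRNA replicate 1 there were 3, with NDUFV1 added, and 5.6% of all genes passed. In MV4-11 the count was 14 without CHD4 shRNA replicate 3, when 16.4% of all genes passed. With CHD4 shRNA replicate 1 left out it was 1, ATP5F1E, when 3.53% did. ATP5F1E and ATP5MC2 passed when CHD4 shRNA replicate 2 was left out, as did 5.32% of all genes. ATP5F1E passed with NDUFA13 when scrambled replicate 2 was left out (5.41% of all genes), and with NDUFV1 when scrambled replicate 3 was (5.01%). Without scrambled replicate 1 there were 5, ATP5F1E, ATP5MC2, COX7A2L, NDUFB2 and NDUFV1, and 6.38% of all genes passed.

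**Figure D2:**
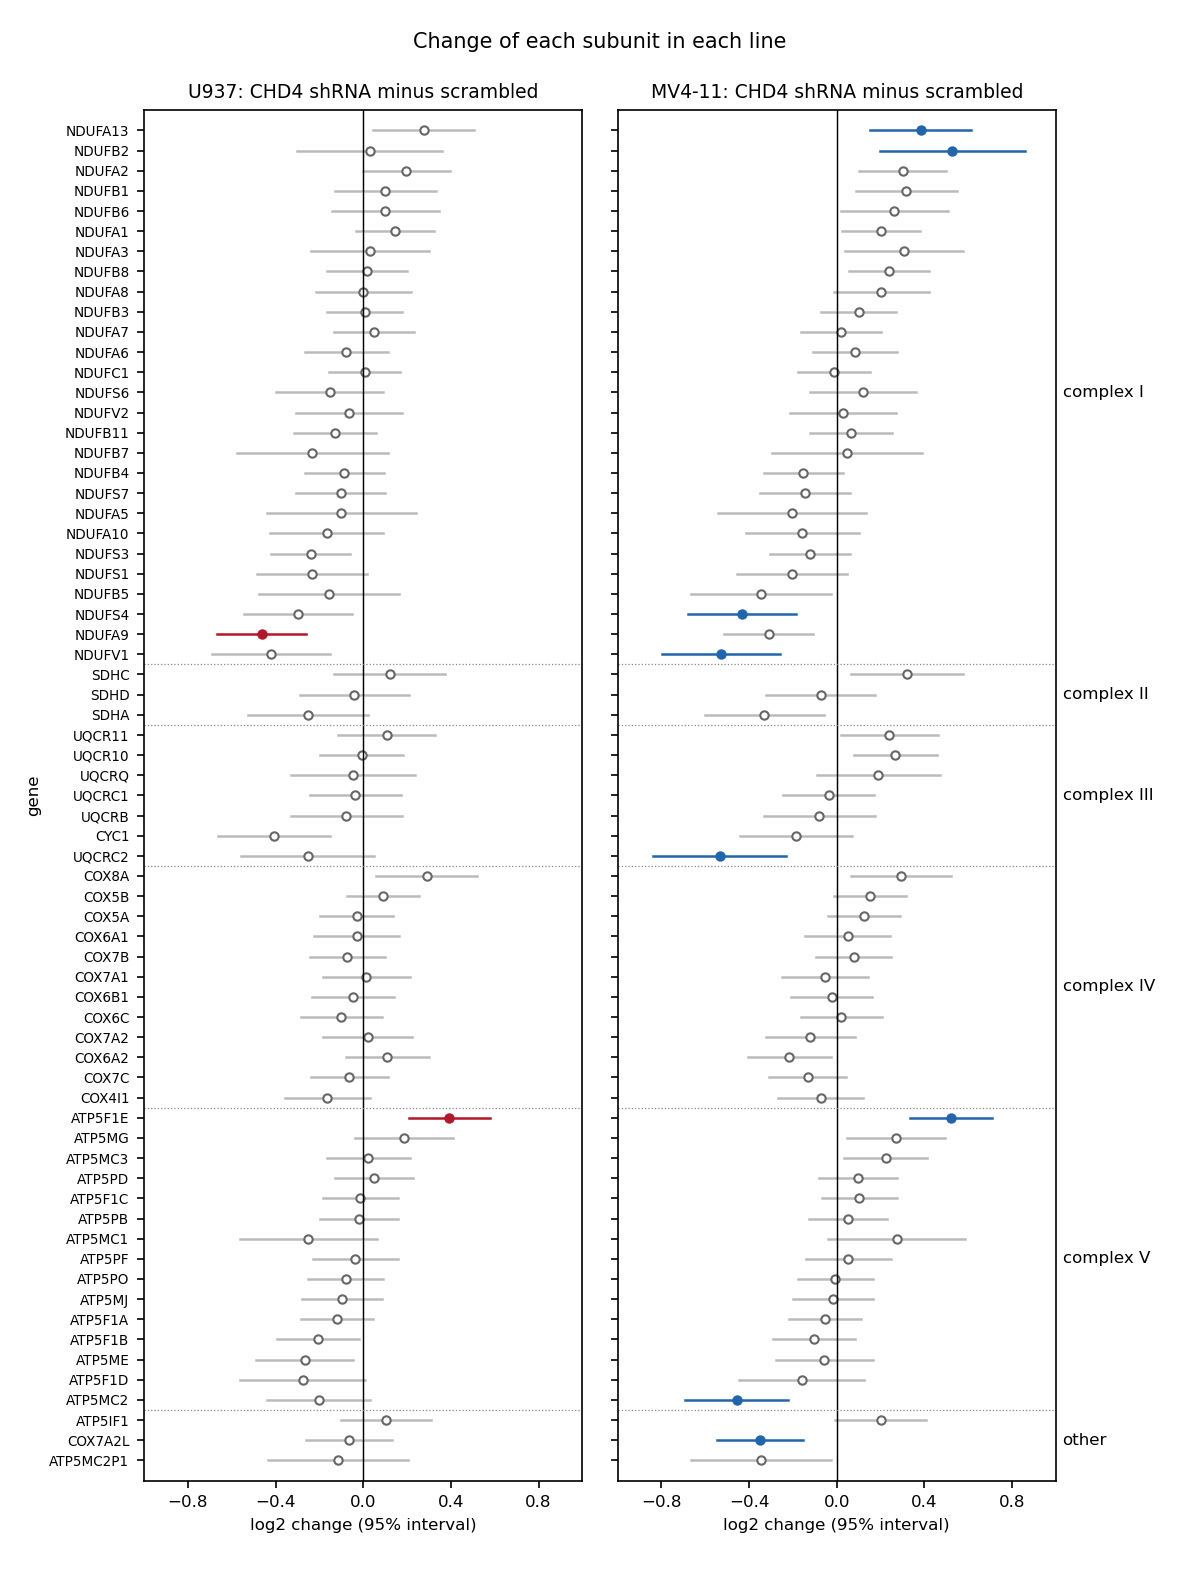
Log2 change of each of the 67 genes with its 95% interval, CHD4 shRNA minus scrambled, in U937 on the left and MV4-11 on the right, grouped by complex. Filled points passed the adjusted p of 0.05, 2 genes in U937 and 8 in MV4-11, and open points did not.

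Within complex I, 1 gene fell in U937, while in MV4-11 2 rose and 2 fell. The 5 members of the catalytic core, which lie along the path of electrons from NADH to ubiquinone, were NDUFS1, NDUFS3, NDUFS7, NDUFV1 and NDUFV2. Their median change was -0.23 in U937, with all 5 below 0, and -0.15 in MV4-11, with 4 of the 5 below 0. The 22 accessory subunits, which surround the core, had medians of 0.003 in U937 (11 above 0 and 10 below) and 0.09 in MV4-11 (15 above and 7 below). Set against the scrambled mean of each gene, the core median was -0.18, -0.27 and -0.16 on the U937 CHD4 shRNA arrays, against -0.06, -0.08 and 0.04 on the U937 scrambled arrays. It was -0.14, -0.18 and -0.16 on the MV4-11 CHD4 shRNA arrays, against -0.003, 0.11 and -0.09 on the MV4-11 scrambled arrays. In both lines the CHD4 shRNA arrays were the lower 3. The accessory median was -0.02, -0.03 and 0.02 on the U937 CHD4 shRNA arrays, against 0.002, -0.04 and 0.04 on the U937 scrambled arrays. It was 0.15, 0.16 and 0.03 on the MV4-11 CHD4 shRNA arrays, against 0.03, 0.06 and -0.07 on the MV4-11 scrambled arrays. These arrays overlapped in both lines, and in MV4-11 the CHD4 shRNA array was the higher of each of the 3 pairs. Members are not replicates, so no test was made over them.

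**Figure D3:**
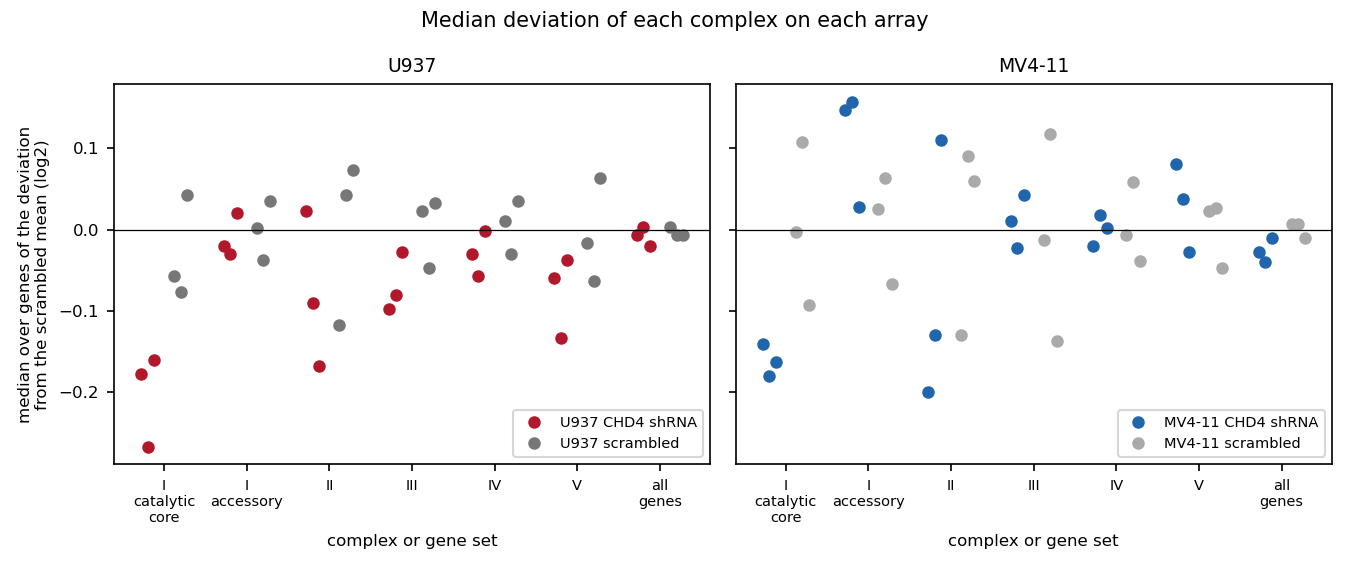
Each point is 1 array, for the core and accessory genes of complex I, complexes II to V and all genes, and its height is the median over the genes of a set of the array's log2 RMA value minus the mean of the line's 3 scrambled arrays. The core of complex I lies between -0.27 and -0.14 on the 6 CHD4 shRNA arrays and between -0.09 and 0.11 on the 6 scrambled arrays. All genes together lie within 0.04 of 0.

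NDUFV1 holds the flavin that accepts electrons from NADH. It read 10.69, 10.58 and 10.94 in MV4-11 CHD4 shRNA cells, against 11.24, 11.37 and 11.18 in MV4-11 scrambled cells. In U937 it read 10.82, 10.60 and 10.37 with CHD4 shRNA, against 10.96, 11.03 and 11.06 with scrambled shRNA. All 3 CHD4 shRNA arrays were below all 3 scrambled arrays in each line. The change in MV4-11 was -0.53 (SE 0.12, 1.44-fold lower, limma adjusted p = 0.0199), and in U937 it was -0.42 (SE 0.12, adjusted p = 0.0659), which did not pass. Of the rest of the core, NDUFS3 had the lowest p in U937, with a change of -0.24 (SE 0.08, adjusted p = 0.122).

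NDUFA9 binds NADPH where the arms of complex I meet. It read 10.28, 10.07 and 10.25 in U937 CHD4 shRNA cells, against 10.72, 10.55 and 10.72 in U937 scrambled cells. The groups were well apart, and the change was -0.46 (SE 0.09, 1.38-fold lower, adjusted p = 0.012). In MV4-11 it read 10.35, 10.44 and 10.38 with CHD4 shRNA, against 10.73, 10.78 and 10.59 with scrambled shRNA. These arrays did not overlap either, and the change of -0.31 (SE 0.09, adjusted p = 0.0566) missed the threshold, which it passed under 6 of 20 alternatives, the replicate block among them. NDUFS4, an accessory subunit of the NADH-oxidising arm, read 9.82, 9.71 and 9.96 in MV4-11 CHD4 shRNA cells, against 10.24, 10.18 and 10.37 in MV4-11 scrambled cells. Again all CHD4 shRNA arrays were lower (change -0.43, SE 0.11, adjusted p = 0.0321). Its U937 arrays, 10.12, 9.91 and 9.71 with CHD4 shRNA against 10.28, 10.23 and 10.12 with scrambled shRNA, met at 10.12. The U937 change was -0.30 (SE 0.11, adjusted p = 0.161).

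NDUFA13, also called GRIM-19, was higher in CHD4 shRNA cells of each line. It read 12.65, 12.79 and 12.54 in MV4-11 CHD4 shRNA cells, against 12.28, 12.46 and 12.09 in MV4-11 scrambled cells, a change of 0.38 (SE 0.11, adjusted p = 0.0401). In U937 it read 12.43, 12.44 and 12.58 with CHD4 shRNA, against 12.23, 12.16 and 12.23 with scrambled shRNA, a change of 0.28 (SE 0.11, adjusted p = 0.163). Both lines had separate groups, and MV4-11 passed the test. NDUFB2, a subunit of the membrane arm, read 12.16, 12.21 and 11.75 in MV4-11 CHD4 shRNA cells, against 11.74, 11.62 and 11.18 in MV4-11 scrambled cells. The lowest CHD4 shRNA array was just above the highest scrambled array, and replicate 3 was the lowest of both groups. The change was 0.53 (SE 0.15, adjusted p = 0.0482), and the other NDUFB2 probe set also gave 0.53. In U937 NDUFB2 overlapped, with 11.82, 11.90 and 11.91 in CHD4 shRNA cells against 11.96, 11.89 and 11.69 in scrambled cells (change 0.03, adjusted p = 0.956).

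Complex II, which is also the succinate dehydrogenase of the tricarboxylic acid cycle, had no member past the test in either line. SDHA, the flavin subunit, had the lowest p in U937. It read 10.83, 10.76 and 10.41 in U937 CHD4 shRNA cells, against 10.96, 10.99 and 10.81 in U937 scrambled cells, overlapping at replicate 3 of the scrambled group (change -0.25, SE 0.13, adjusted p = 0.308). In MV4-11 its change was -0.33 (SE 0.13, adjusted p = 0.123). SDHC, a haem-binding membrane anchor, lay the other way. It read 10.37, 10.30 and 10.33 in MV4-11 CHD4 shRNA cells, against 9.97, 10.14 and 9.93 in MV4-11 scrambled cells. The groups were apart, with a change of 0.32 (SE 0.12, adjusted p = 0.108), and its 4 probe sets gave 0.23 to 0.32. SDHD, the other anchor, had -0.04 in U937 and -0.07 in MV4-11.

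In complex III, UQCRC2, a core protein that supports the complex, fell in MV4-11. UQCRC2 read 12.24, 12.08 and 12.64 in MV4-11 CHD4 shRNA cells, against 12.76, 12.80 and 13.00 in MV4-11 scrambled cells. The groups were apart, CHD4 shRNA replicate 3 being the nearest to the scrambled arrays. The change was -0.53 (SE 0.14, 1.45-fold lower, adjusted p = 0.0321), and the other UQCRC2 probe set gave -0.64. In U937 it read 12.75, 12.69 and 12.39 with CHD4 shRNA, against 12.87, 12.87 and 12.85 with scrambled shRNA. These groups were apart as well, with a change of -0.25 (SE 0.14, adjusted p = 0.367). CYC1, cytochrome c1, read 11.24, 11.10 and 11.20 in U937 CHD4 shRNA cells, against 11.49, 11.54 and 11.73 in U937 scrambled cells, also without overlap. Its change was -0.41 (SE 0.12, adjusted p = 0.0617) in U937, where it passed under 7 of 20 alternatives (adjusted p = 0.019 with the block within MV4-11), and -0.19 (SE 0.12, adjusted p = 0.367) in MV4-11. The other core protein, UQCRC1, had -0.04 in each line, and the small membrane subunit UQCR10 had -0.01 in U937 and 0.27 (adjusted p = 0.0739) in MV4-11.

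In complex IV, cytochrome c oxidase, 0 of 12 members changed in either line, with medians of -0.03 in U937 and -0.002 in MV4-11. Before adjustment, 1 member had a limma p under 0.05 in U937 and 2 in MV4-11. COX8A, the ubiquitous form of subunit 8, had the lowest p in each line. It read 12.86, 12.93 and 13.18 in U937 CHD4 shRNA cells, against 12.58, 12.68 and 12.84 in U937 scrambled cells. In MV4-11 it read 13.34, 13.40 and 13.38 with CHD4 shRNA, against 13.00, 13.20 and 13.04 with scrambled shRNA. The CHD4 shRNA arrays were the higher 3 in each line, with changes of 0.29 (SE 0.11, adjusted p = 0.141) in U937 and 0.29 (SE 0.11, adjusted p = 0.104) in MV4-11. The remaining 11 members had changes between -0.16 and 0.11 in U937 and between -0.22 and 0.15 in MV4-11.

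The table held tissue isoforms of 2 complex IV subunits. COX6A2, the heart and muscle form of subunit 6A, read 5.89, 5.97 and 5.94 in U937 CHD4 shRNA cells, against 5.86, 5.88 and 5.73 in U937 scrambled cells. In MV4-11 it read 5.68, 5.46 and 5.54 with CHD4 shRNA, against 5.83, 5.75 and 5.75 with scrambled shRNA. It was the 1 member of 67 whose arrays were apart in opposite directions in the lines, as were those of 22 of 11963 genes. COX6A2 was higher in U937 by 0.11 (adjusted p = 0.569) and lower in MV4-11 (change -0.22, adjusted p = 0.141). The difference between the changes was -0.33 (95% interval -0.59 to -0.06, adjusted p = 0.937). COX6A2 was dim, with a mean of 5.77 over the 12 arrays. COX7A1, the muscle form of subunit 7A, stayed between 4.76 and 5.04 on all 12 arrays. The ubiquitous forms were bright, and their changes in U937 and MV4-11 were -0.03 and 0.05 for COX6A1 and 0.02 and -0.12 for COX7A2. Muscle markers were dim, with list medians of 4.89 to 5.29 over the 12 arrays.

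In ATP synthase ATP5F1E rose in both lines and ATP5MC2 fell in MV4-11. ATP5F1E, the epsilon subunit of the central stalk that turns inside the F1 head, read 12.93, 13.00 and 13.11 in U937 CHD4 shRNA cells, against 12.69, 12.54 and 12.63 in U937 scrambled cells. In MV4-11 it read 13.22, 13.16 and 13.08 with CHD4 shRNA, against 12.65, 12.58 and 12.67 with scrambled shRNA. Every CHD4 shRNA array exceeded every scrambled array, across the lines as well. The change was 0.39 (SE 0.09, 1.31-fold, adjusted p = 0.0173) in U937 and 0.52 (SE 0.09, 1.43-fold, adjusted p = 0.00357) in MV4-11. It was the only 1 of the 67 members past the test in both lines, as were 477 of all 11963 genes. In MV4-11 ATP5F1E passed under all 20 alternatives that kept the threshold of 0.05 (adjusted p 0.000954 to 0.0254). In U937 it passed under 16 of these 20, and the adjusted p reached 0.0745. The 20 include leaving out each array of the other line, which keeps the change as it is and moves only its p. The other 4 subunits of the F1 head did not pass: the catalytic beta subunit ATP5F1B had -0.21 (adjusted p = 0.203) in U937 and -0.10 (adjusted p = 0.525) in MV4-11. The alpha subunit ATP5F1A had -0.12 in U937 and -0.05 in MV4-11.

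The proton-driven rotor ring is built of subunit c, which 3 genes encode as the same mature protein. Of these, ATP5MC2 read 11.95, 12.08 and 12.11 in MV4-11 CHD4 shRNA cells, against 12.30, 12.62 and 12.59 in MV4-11 scrambled cells. The groups were apart, with a change of -0.46 (SE 0.11, 1.37-fold lower, adjusted p = 0.0209). A dimmer ATP5MC2 probe set with a mean of 5.57 gave -0.04. The pseudogene ATP5MC2P1 is a copy of ATP5MC2 that can share signal with it, and its probe set gave -0.35 (SE 0.15, adjusted p = 0.165). In U937 ATP5MC2 had -0.20 (SE 0.11, adjusted p = 0.349), with separate groups. ATP5MC1 read 10.96, 10.97 and 10.49 in MV4-11 CHD4 shRNA cells, against 10.77, 10.58 and 10.25 in MV4-11 scrambled cells. These arrays overlapped, and replicate 3 was the lowest of both groups. The change of 0.27 (SE 0.14, adjusted p = 0.274) passed with the replicate block (adjusted p = 0.0421). In U937 ATP5MC1 read 10.79, 10.70 and 10.78 with CHD4 shRNA, against 10.99, 10.96 and 11.07 with scrambled shRNA (change -0.25, adjusted p = 0.396). ATP5MC3, the third gene of the ring, had 0.02 in U937 and 0.22 (adjusted p = 0.131) in MV4-11. The 4 members of the peripheral stalk, which holds the head still, stayed between -0.08 and 0.10 in both lines.

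Of the members outside the complexes, COX7A2L, which joins complexes III and IV into supercomplexes, fell in MV4-11. It read 11.21, 11.31 and 11.40 in MV4-11 CHD4 shRNA cells, against 11.51, 11.74 and 11.72 in MV4-11 scrambled cells, without overlap (change -0.35, SE 0.09, adjusted p = 0.0297). In U937 it read 11.55, 11.53 and 11.46 with CHD4 shRNA, against 11.59, 11.60 and 11.54 with scrambled shRNA, and the groups overlapped (change -0.06, adjusted p = 0.796). ATP5IF1, which blocks ATP hydrolysis by the F1 head, had 0.10 (adjusted p = 0.639) in U937 and 0.20 (adjusted p = 0.22) in MV4-11.

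**Figure D4:**
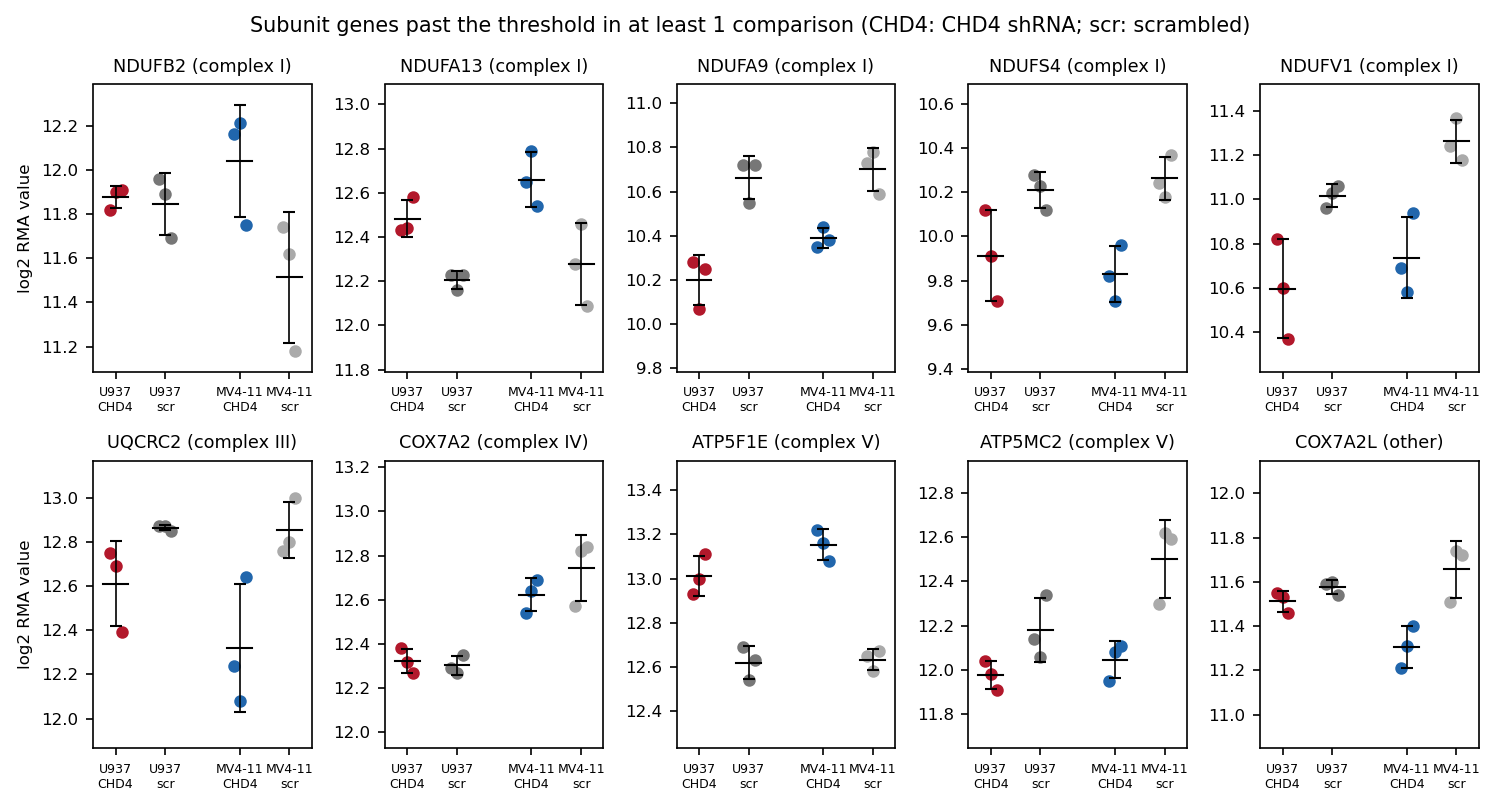
Log2 RMA values of the 10 genes past the adjusted p of 0.05 in at least 1 comparison, 1 point per array, with the mean (long bar) and SD (capped bar) of 3 arrays. For ATP5F1E all 6 CHD4 shRNA arrays lie above all 6 scrambled arrays, and COX7A2 is higher in MV4-11 than in U937.

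The lines were compared through the difference of their changes, MV4-11 minus U937. By limma 0 of the 67 members passed, as did 0% of all genes. Before adjustment 5 members had p under 0.05 (7.46%), against 545 genes (4.56%). These were NDUFB2, with a difference of 0.50, ATP5MC1 with 0.52 (95% interval 0.08 to 0.97), UQCR10 with 0.27, COX6A2 with -0.33 and COX7A2L with -0.29. Each had an adjusted p of 0.937. So the 7 genes past the test in MV4-11 alone, and NDUFA9 in U937 alone, were not shown to differ between the lines. The median difference over the members was 0.09, against -0.01 over all genes, and 47 of the 67 differences were above 0. Side by side, 19 of 67 members were higher in both lines, 28 lower in both, and 19 opposite. Of all 11963 genes, 3605 were higher in both, 4326 lower in both and 3866 opposite. The changes in the lines had a Pearson correlation of 0.73 and a Spearman correlation of 0.73 across the 67 genes, against 0.71 and 0.57 across all genes. Genes on the same arrays are not independent, and these correlations are descriptions.

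Scrambled MV4-11 cells were set against scrambled U937 cells to show how the lines differ without CHD4 shRNA. Of the members, 1 differed (1.49%), against 5.48% of all genes. Before adjustment 12 had p under 0.05 (17.9%), against 20.1%. COX7A2, the ubiquitous form of subunit 7A of complex IV, read 12.57, 12.82 and 12.84 in MV4-11 scrambled cells, against 12.29, 12.27 and 12.35 in U937 scrambled cells. The lines were apart, by 0.44 (SE 0.09, 1.36-fold higher in MV4-11, adjusted p = 0.0156). The same order held with CHD4 shRNA, where COX7A2 read 12.54, 12.64 and 12.69 in MV4-11 and 12.38, 12.32 and 12.27 in U937. COX8A was 0.38 higher in MV4-11 (SE 0.11, adjusted p = 0.0575), and ATP5MC1 had the lowest difference, -0.47 (adjusted p = 0.081). COX7A2 missed the threshold without U937 scrambled replicate 1 or 2 or MV4-11 scrambled replicate 2 or 3. In those fits 0 members passed, and 2.65% to 2.84% of all genes did. Without U937 scrambled replicate 3, COX8A and ATP5MC2P1 passed as well (4.47% of all genes). Without MV4-11 scrambled replicate 1, ATP5MC1 and ATP5MC2 did (6.31% of all genes).

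Other parts of the mitochondrion, and antioxidant enzymes, were read from gene lists written from textbook knowledge, with the subunits as the point of comparison. Of 29 measured assembly factors, which build the complexes without staying in them, 5 fell and 0 rose in each line. That is 17.2%, against 6.36% of all genes in U937 and 9.42% in MV4-11. Their median change was -0.12 in U937 and -0.19 in MV4-11. BCS1L, FASTKD2 and TTC19 were among those that fell in both lines. The complex III factor TTC19 fell by 0.69 (SE 0.11, adjusted p = 0.00408) and the RNA-binding FASTKD2 by 0.53 (SE 0.10, adjusted p = 0.00916) in U937. In MV4-11 the haem a synthase COX15 fell by 0.51 (SE 0.13, adjusted p = 0.028) and LRPPRC, which stabilises mitochondrial messages, by 0.39 (SE 0.10, adjusted p = 0.0319). With any 1 array of U937 left out, TTC19 and FASTKD2 still passed, in counts of 2 to 4. In MV4-11 the count was 0 without CHD4 shRNA replicate 1 or scrambled replicate 1, and 1 to 4 without any other. Without CHD4 shRNA replicate 3 it was 4, of which 2 rose and 2 fell, when 16.4% of all genes passed. Without scrambled replicate 2 it was 2, of which 1 rose and 1 fell. With the replicate block it was 8, of which 2 rose and 6 fell, in a fit that called 15.9% of all genes.

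Among 15 measured genes of electron carriers and coenzyme Q synthesis, 1 fell in U937 (6.67%, against 6.36% of all genes) and 2 in MV4-11 (13.3%, against 9.42%), with medians of -0.19 and -0.11. ETFDH, which feeds electrons from fat oxidation to ubiquinone, fell in U937 with a change of -0.80 (SE 0.10, adjusted p = 0.00063). It also fell in MV4-11, with a change of -0.42 (SE 0.10, adjusted p = 0.018). In U937 it passed whichever of the 6 arrays of that line was left out. In MV4-11 it did not pass without CHD4 shRNA replicate 1, scrambled replicate 2 or scrambled replicate 3. COQ8A, a kinase-like protein of coenzyme Q synthesis, fell in MV4-11 by 0.52 (adjusted p = 0.0259). It did not pass there without CHD4 shRNA replicate 1 or 2 or scrambled replicate 2 or 3. HCCS, which attaches haem to cytochrome c, had -0.30 (adjusted p = 0.0538) in U937.

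Of 16 measured genes of the tricarboxylic acid cycle and pyruvate dehydrogenase, 3 fell in U937 (18.8%, against 6.36% of all genes), 2 fell in MV4-11 (12.5%, against 9.42%) and 0 rose, with medians of -0.18 and -0.19. IDH3G and DLAT fell in U937, by 0.37 (adjusted p = 0.0329) and 0.45 (adjusted p = 0.0335). The succinyl-CoA synthetase genes SUCLG2 and SUCLG1 fell in MV4-11, by 0.71 (adjusted p = 0.0197) and 0.30 (adjusted p = 0.0457). SUCLG1 also fell in U937. Leaving out U937 CHD4 shRNA replicate 1 left 1 called there, leaving out scrambled replicate 2 left 2, and leaving out any other array of that line left 0. The MV4-11 count was 0 without CHD4 shRNA replicate 1 or 2 or scrambled replicate 3, and 1 without scrambled replicate 1 or 2. It was 4 without CHD4 shRNA replicate 3, of which 1 rose and 3 fell, in a fit that called 16.4% of all genes. Of 18 measured regulators of mitochondrial gene expression, 0 passed in U937 and 1, MTERF1, rose in MV4-11 (5.56%, against 9.42% of all genes), by 0.52 (adjusted p = 0.0174), with list medians of -0.145 and -0.10. MTERF1 missed the threshold without CHD4 shRNA replicate 1 or 2 or scrambled replicate 1 or 3. MTERF3 had -0.34 (adjusted p = 0.0534) in MV4-11 and passed there with the replicate block. GABPB1, a partner of GABP, had 0.30 (adjusted p = 0.146) in U937.

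Of 22 measured import genes, 2 fell in U937 (9.09%, against 6.36% of all genes) and 4 in MV4-11 (18.2%, against 9.42%), with medians of -0.145 and 0.03. MTX2, of the outer membrane, averaged 10.18 in U937 CHD4 shRNA cells against 10.96 in U937 scrambled cells, and 10.16 in MV4-11 CHD4 shRNA cells against 11.01 in MV4-11 scrambled cells. Its changes were -0.78 (adjusted p = 0.0224) and -0.85 (adjusted p = 0.0117). TIMM44, which tethers the import motor, had -0.50 (adjusted p = 0.0151) and -0.48 (adjusted p = 0.0154). In U937 MTX2 passed without CHD4 shRNA replicate 1 but not when any other array of that line was left out, and TIMM44 also passed without scrambled replicate 2. In MV4-11 MTX2 passed whichever of its 6 arrays was left out. The count there ran from 1, without CHD4 shRNA replicate 1 or scrambled replicate 2, to 7, without CHD4 shRNA replicate 3. Those 7 were 3 higher and 4 lower, in a fit that called 16.4% of all genes.

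Of 51 mitochondrial ribosomal protein genes, 1 rose and 4 fell in U937 (9.8%, against 6.36% of all genes), where 43 changes were below 0 and the median was -0.23. In MV4-11 0 rose and 2 fell (3.92%, against 9.42%), with a median of -0.02. MRPL42 had -0.47 (adjusted p = 0.0191) and MRPL33 0.60 (adjusted p = 0.0223) in U937. MRPS30 had -0.55 (adjusted p = 0.0114) and MRPS27 -0.43 (adjusted p = 0.0147) in MV4-11. MRPS30 was also among the genes that fell in U937. With CHD4 shRNA replicate 1 of U937 left out 4 passed, with CHD4 shRNA replicate 3 or scrambled replicate 2 left out 1 passed, and with any other array of that line left out 0 passed. Leaving out MV4-11 CHD4 shRNA replicate 1 left 0 called there, leaving out scrambled replicate 2 left 1, and leaving out any other array of that line left 2 or 3. Without MV4-11 CHD4 shRNA replicate 3 there were 3, of which 1 rose and 2 fell. With the replicate block 5 passed, of which 2 rose and 3 fell (15.9% of all genes passed).

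Of 9 measured antioxidant enzymes, 2 passed in U937 (22.2%, against 6.36% of all genes) and 1 in MV4-11 (11.1%, against 9.42%). The list is not confined to the mitochondrion, since CAT is mainly peroxisomal and SOD1 mainly cytosolic. Catalase, CAT, rose in both lines, by 0.39 (adjusted p = 0.0468) in U937 and 0.43 (adjusted p = 0.0253) in MV4-11. The superoxide dismutase SOD1 fell in U937, by 0.38 (adjusted p = 0.0456), and the glutaredoxin GLRX2 had -0.32 (adjusted p = 0.366) in MV4-11. The list medians were 0.06 in U937 and -0.01 in MV4-11. In U937 CAT passed without CHD4 shRNA replicate 1, and 0 enzymes passed without any other array of that line. In MV4-11 CAT passed without CHD4 shRNA replicate 3 or scrambled replicate 2, and 0 enzymes passed without any other array of that line. In every one of these lists 0 genes passed the test of the difference between the lines. The 13 subunits encoded in the mitochondrial genome matched 0 genes by the symbols searched and so were not analysed here.

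**Figure D5:**
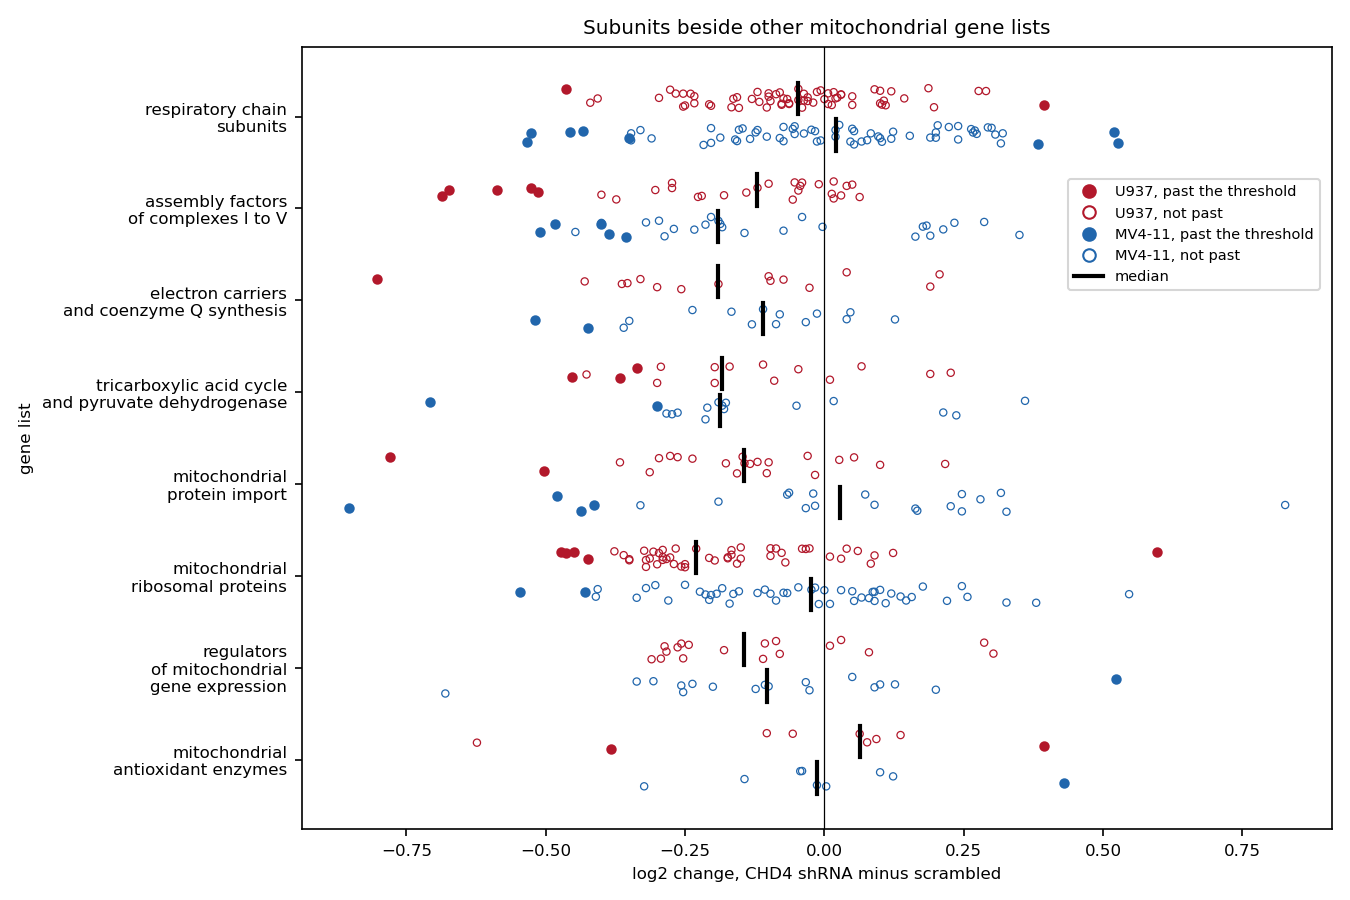
Log2 change of each measured gene, CHD4 shRNA minus scrambled, for the 67 subunits and 7 other lists. The list of antioxidant enzymes is not confined to the mitochondrion. U937 is red and MV4-11 blue, filled points passed the adjusted p of 0.05, and black bars are medians. The subunits lie between -0.53 and 0.53, and ETFDH in U937 and MTX2 in both lines are among the farthest points to the left.

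Promoter letters were set beside the changes as a description. In U937 the 22 members with the NRF1 letters had a median change of -0.06, and the 35 without had -0.02. In MV4-11 the medians were 0.01 with and 0.07 without, and of the 8 changed members 1 had these letters and 7 did not. The 17 members with the ETS and GABP letters had medians of -0.04 in U937 and 0.05 in MV4-11, and the 40 without had -0.06 and 0.02. For the 10 with the YY1 letters the medians were -0.06 and 0.01, and for the 47 without -0.04 and 0.07. The 8 changed members of MV4-11 were also split 1 with and 7 without for the ETS and GABP letters and for the YY1 letters. Of the 2 changed in U937, 1 had the NRF1 letters, 0 the ETS and GABP letters and 1 the YY1 letters. The Spearman correlation between the span of a gene on the genome and its change was -0.22 in U937 and -0.25 in MV4-11 across members, against -0.01 and -0.06 across 11954 genes.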

How the data were processed

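Total RNA of 12 cultures was measured on Affymetrix human expression arrays. The authors deposited log2 values made with RMA (background correction, quantile normalization and probe summary), per the submitters' processing notes. The sources used here do not give the version or whether all arrays were processed together. Of 22277 probe sets, 62 controls were left out, and 19064 with 1 gene symbol gave 11963 genes, each read from its brightest probe set. Symbols were updated through RefSeq where it listed them (19052 probe sets). Array medians lay between 6.96 and 7.01. Arrays give no read depth, so their number limits the precision.

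limma 3.58.1 in R 4.3.3 fitted 4 group means on the 12 arrays, with contrasts for each line, their difference and the scrambled controls, and Benjamini-Hochberg adjustment over all genes. The smallest exact permutation p that 3 arrays against 3 allow is 0.1. The labels do not say that replicates were separate cultures, so p-values measure the spread between arrays, which may be technical. The fit was checked on simulated data.

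Whether equal replicate numbers pair the groups was checked by the correlation of deviations from the group means. It was 0.457, 0.478 and 0.494 in MV4-11, which was taken as paired, and 0.002, 0.351 and 0.336 in U937, which was not.

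The members and gene lists were chosen with earlier results of these data known. The genes to name were set by rule: members past the threshold, the lowest p and the highest and lowest mean of each complex, tissue isoform pairs, and the 2 genes of each list with the lowest p in each line. Others were chosen after their values were seen. Alternatives were other thresholds, normalizations, probe set rules, filters, group sets, a replicate block and leaving out each array.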

Additional observations from a re-analysis of the deposited data

How the results depend on the processing

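No called change of a named subunit turned its direction under the alternatives, and of the uncalled ones that were recomputed, that of NDUFB2 in U937 crossed 0 (-0.05 to 0.09). The difference between the lines gave 0 members under each alternative run for it, which leaves out the fit of only the groups compared. It called 4 of all genes without MV4-11 CHD4 shRNA replicate 2, 1 without MV4-11 CHD4 shRNA replicate 3, and 0 otherwise. With adjusted p under 0.01 the counts of changed members were 0 in U937, 1 in MV4-11 and 0 between the scrambled controls, against 2, 8 and 1, and the shares of all genes were 2.09%, 3.14% and 2.23%. With only the groups compared in the fit, MV4-11 gave 1 and 4.29% of all genes. A replicate block within each line gave 6 in U937, 19 in MV4-11 and 5 between the scrambled controls, with 12.3%, 19.7% and 13.5% of all genes. A block within MV4-11 alone gave 3 in U937 (CYC1 added), 13 in MV4-11 and 4 between the scrambled controls, with 9.76%, 15.9% and 10.4% of all genes. The U937 arrays were not taken as paired, with correlations of 0.351 and 0.336 for replicates 2 and 3 but 0.002 for replicate 1. The 6 in U937 with a block within each line were ATP5F1E, COX8A, CYC1, NDUFA13, NDUFA9 and NDUFS4. A block takes variation shared by a number out of the error of a comparison between lines, so its p is too small there. Between the scrambled controls, leaving out the dimmest 25% of genes gave 2 members (7.24% of all genes), quantile normalization 2 (6.2%), eBayes with trend and robust 3 (5.79%), and averaging the probe sets of each gene 2 (5.65%). Leaving out 1 array gave 0 to 3 members in U937, 1 to 14 in MV4-11 and 0 to 3 between the scrambled controls. In the same order, the shares of all genes ran from 2.56% to 7.92%, 3.53% to 16.4% and 2.65% to 7.06%. The median member difference between the scrambled controls, 0.05, then ran from 0.0067, without MV4-11 scrambled replicate 2, to 0.0633. With median centring MV4-11 had 2 members higher and 6 lower, against 3 and 5, and all genes 520 higher and 623 lower, against 566 and 561. The number of arrays limits what can be called, and dim probe sets such as those of COX6A2 and COX7A1 may not follow their RNA.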
